A study of Homo sapiens with 6 samples.

Results

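The 10 genes described here encode enzymes of bile acid synthesis and conjugation. They were chosen by name, as the rows of the deposited expression table with the symbols CYP7A1, CYP8B1, CYP27A1, CYP7B1, HSD3B7, AKR1D1, AMACR, ACOX2, SLC27A5 and BAAT, and each symbol matched 1 of the 58037 gene rows. Expression was measured by sequencing of stranded mRNA libraries from HepaRG, a line of human hepatocellular carcinoma cells whose cultures differentiate into hepatocyte-like and biliary-like cells. In 3 fatty acid libraries the differentiated cells had been given palmitate and oleate at 1 part to 2 parts, 0.5 mM in all and conjugated to 0.02% bovine serum albumin, for 72 h. In 3 control libraries they had been given 0.02% albumin without fatty acid for the same time, and both groups came from the same line at passages 15 to 18, after 14 days of growth, 14 days of differentiation and 5 days in basal medium with insulin and hydrocortisone. Whether the 3 libraries of a group came from separate cultures is not stated in the labels, so p-values measure the spread between libraries, which could be purely technical.

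The liver turns cholesterol into bile acids, which carry cholesterol out of the body and emulsify dietary fat. The classical route begins in the endoplasmic reticulum with CYP7A1, and the acidic route begins in mitochondria with CYP27A1 followed by CYP7B1. Both routes then use HSD3B7 and AKR1D1 to remodel the steroid ring, CYP8B1 adds the hydroxyl group that distinguishes cholic acid from chenodeoxycholic acid, the side chain is shortened in peroxisomes with the help of AMACR and ACOX2, and SLC27A5 and BAAT join the product to glycine or taurine.

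Levels are given as FPKM, reads assigned to a gene relative to its length and to the library's total. For the 10 enzymes the length covers all annotated exon bases, not those of the transcript expressed. Levels of different genes can therefore be compared only roughly. The fatty acid libraries held 8364570 to 15941353 assigned reads and the control libraries 6331372 to 11821423. Of the 10 genes, 8 had a mean of at least 0.5 FPKM over the 6 libraries and were tested within the whole table of 14661 such genes, with limma on log2(FPKM + 0.5) and Benjamini-Hochberg adjustment. Log2 fold changes are fatty acid minus control with their standard error, on this scale, which understates the change of low genes. Every adjusted p below is from that fit unless an alternative is named, with a threshold of 0.05.

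With fatty acid, the hydroxylases CYP7A1 and CYP8B1, the ring reductase AKR1D1 and the conjugating enzyme BAAT fell, to between 15.3% and 64.1% of the control mean. CYP7B1 of the acidic route rose to 135.1% of the control mean. CYP27A1, HSD3B7 and AMACR did not pass the threshold. Thus 4 of 8 tested enzymes were called lower, against 4.68% of all tested genes, and 1 was called higher, against 8.22%. Among those called lower, CYP7A1 reached the minimum of 0.5 FPKM only through its controls. The groups did not overlap for 5 tested enzymes that were lower with fatty acid, against 13.3% of all tested genes, and for 1 that was higher, against 23.7%. The median log2 fold change of the 8 enzymes was -0.47, and that of all tested genes was 0.04. Of all calls, 63.7% were higher, against 86.5% after rescaling to TPM, 48.8% with median-of-ratios scaling, 49.5% with quantile normalization and 46.0% with scaling to nuclear reads. Under these 4 scalings 4 or 5 of the enzymes were called lower and 1 higher.

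**Figure D1:**
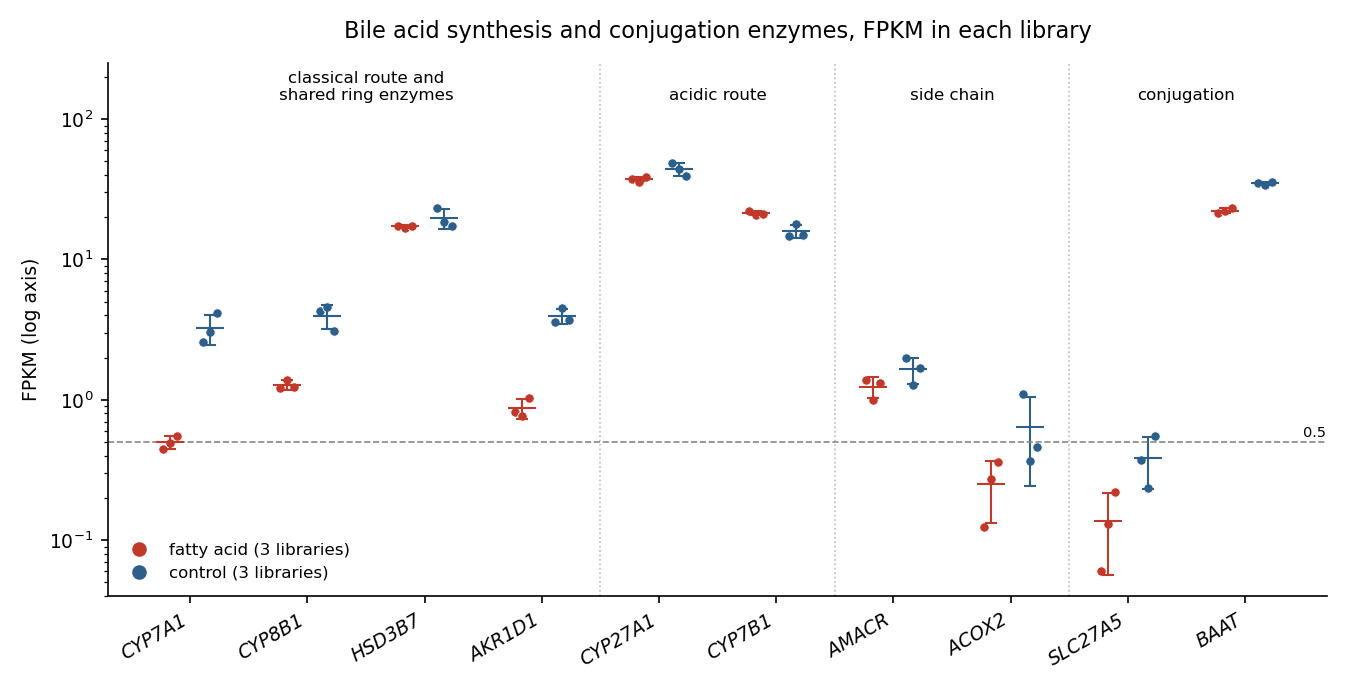
FPKM of the 10 enzymes in each library on a log axis, grouped by step, with fatty acid libraries in red and control libraries in blue. Points are libraries, the wide bar is the group mean and the whiskers are 1 SD (n = 3 per group), and the dashed line is the minimum of 0.5 FPKM for testing, which ACOX2 and SLC27A5 do not reach on average. The groups of CYP7A1, CYP8B1 and AKR1D1 lie far apart, those of HSD3B7 and AMACR overlap, and CYP7B1 is the enzyme whose fatty acid libraries all lie above the controls.

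The 3 fatty acid libraries contained CYP7A1, the rate-limiting cholesterol hydroxylase of the classical route (ENSG00000167910.3, GRCh38 chromosome 8, 58490178 to 58500236, minus strand), at 0.446, 0.496 and 0.553 FPKM, and the 3 control libraries at 2.571, 3.052 and 4.129 FPKM. All fatty acid libraries were low, and the highest of them lay well under the lowest control. These levels rested on 11, 21 and 26 reads in the fatty acid libraries and on 68, 57 and 144 reads in the control libraries. The fatty acid mean was 15.3% of the control mean, with a log2 fold change of -1.89 ± 0.16 (limma adjusted p = 0.000667). In the order of all 14661 fold changes from the lowest up, CYP7A1 stood at place 9. Its fatty acid mean of 0.498 FPKM was under the minimum of 0.5 FPKM, so it was tested only because of its controls. The place is therefore a description and no separate evidence.

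CYP8B1, the sterol hydroxylase of the cholic acid branch (ENSG00000180432.5, chromosome 3, 42856005 to 42876165, minus strand), was present at 1.211, 1.395 and 1.229 FPKM with fatty acid and at 4.32, 4.552 and 3.086 FPKM in controls. Its control libraries varied by 19.8% of their mean and its fatty acid libraries by 7.94%, and the groups lay apart. The log2 fold change was -1.32 ± 0.14 (limma adjusted p = 0.00191). ACKR2, a chemokine-scavenging receptor gene on the opposite strand, shares 142 of the 4441 exon bases of CYP8B1 (3.20%) and had 1.161, 1.187 and 0.977 FPKM with fatty acid against 2.126, 1.505 and 1.736 FPKM in controls, which did not pass the threshold (limma adjusted p = 0.0519). The labels name no strand setting for the authors' counting, and the part of this overlap in the CYP8B1 value was not tested.

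The ring-modifying enzymes that follow did not move together. HSD3B7, the dehydrogenase and isomerase that acts after the initial hydroxylation (ENSG00000099377.13, chromosome 16, 30985207 to 30989152, plus strand), had 17.442, 16.799 and 17.449 FPKM with fatty acid and 23.382, 18.611 and 17.325 FPKM in controls. The groups overlapped, with control replicate 1 the high library. Its log2 fold change was -0.18 ± 0.10, with a 95% interval of -0.43 to 0.06 (limma adjusted p = 0.281), and 64.6% of its exon bases are shared with a gene on the opposite strand.

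AKR1D1, the reductase that bends the steroid ring into its bile acid shape (ENSG00000122787.14, chromosome 7, 138002324 to 138117986, plus strand), had 0.812, 0.765 and 1.034 FPKM in the fatty acid libraries and 3.606, 4.545 and 3.72 FPKM in the control libraries. Every fatty acid library was below every control. The fatty acid mean was 22.0% of the control mean and the log2 fold change was -1.70 ± 0.13 (limma adjusted p = 0.000334), place 20 from the lowest among all tested genes. AKR1D1 was the enzyme with the smallest adjusted p of the 8.

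In the acidic route CYP7B1 passed the threshold and CYP27A1 did not. CYP27A1, the mitochondrial sterol hydroxylase that also begins side-chain oxidation in the classical route (ENSG00000135929.8, chromosome 2, 218781749 to 218815293, plus strand), had 37.593, 35.851 and 38.757 FPKM with fatty acid and 48.836, 44.0 and 39.389 FPKM in controls. The highest fatty acid library lay just under the lowest control, and the log2 fold change of -0.23 ± 0.08 did not pass the threshold (95% interval -0.42 to -0.04, limma adjusted p = 0.105). It passed with quantile normalization (adjusted p = 0.0424), with limma voom on recovered reads (0.0449) and without control replicate 3 (0.0491).

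CYP7B1, the oxysterol hydroxylase of the acidic route (ENSG00000172817.3, chromosome 8, 64587763 to 64798761, minus strand), had 22.265, 20.869 and 21.139 FPKM in fatty acid libraries and 14.762, 17.788 and 15.013 FPKM in control libraries. All 3 fatty acid libraries were above all 3 controls. The fatty acid mean was 135.1% of the control mean and the log2 fold change was 0.43 ± 0.08 (limma adjusted p = 0.0167). This call was lost without control replicate 3 (adjusted p = 0.0523) and without fatty acid replicate 1 (0.0817), 2 (0.0664) or 3 (0.0520), although the log2 fold change stayed between 0.38 and 0.57 under every alternative run.

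Ratios between enzymes within a library did not overlap between the groups for the 4 pairs given here. They did not overlap either for CYP7A1 over CYP27A1 and AKR1D1 over CYP7A1, which were also computed. Each pair includes an enzyme called lower, so the ratios restate the levels above and add no separate evidence. The level of CYP7A1 was 2.00%, 2.38% and 2.62% of that of CYP7B1 in the fatty acid libraries, and 17.4%, 17.2% and 27.5% in the control libraries. CYP8B1 stood at 3.43% ± 0.40 of CYP27A1 with fatty acid and at 9.01% ± 1.26 in controls (SD, n = 3 each), and AKR1D1 at 5.05% ± 0.76 of HSD3B7 with fatty acid and at 20.4% ± 4.59 in controls. The level of CYP8B1 was 272%, 281% and 222% of that of CYP7A1 with fatty acid, and 168%, 149% and 74.7% in controls. These percentages are ratios of FPKM on annotated exon lengths, with no test. Their size depends on those lengths, which are the same in both groups.

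**Figure D2:**
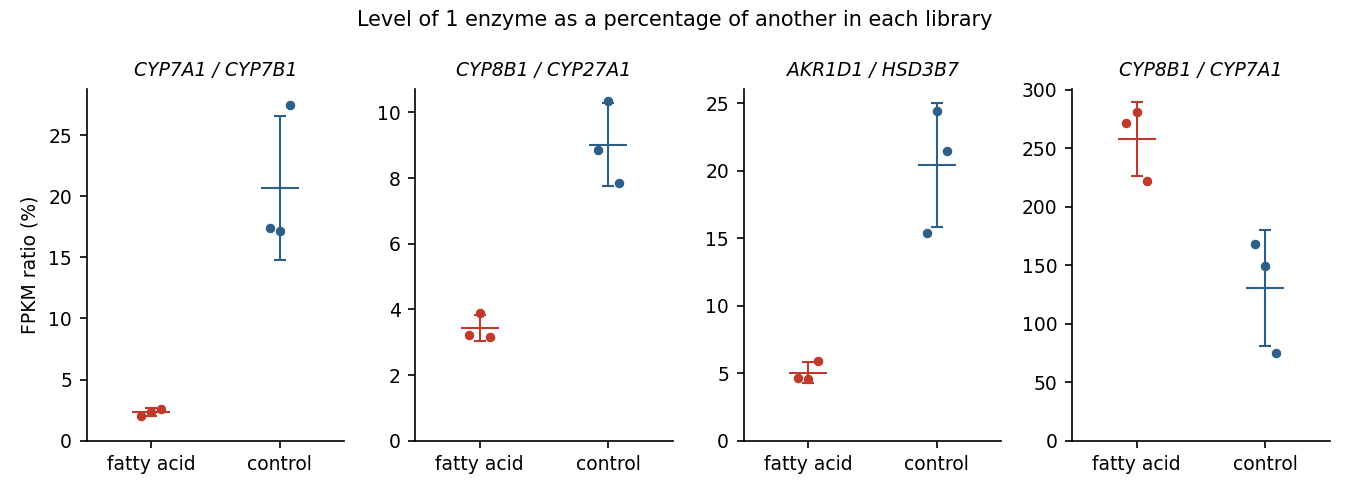
Level of 1 enzyme as a percentage of another, from FPKM, in each library, with fatty acid (red) left of control (blue), points for libraries, and the mean with 1 SD (n = 3 per group). In the first 3 panels the fatty acid libraries lie below all controls, and in the last panel, CYP8B1 over CYP7A1, they lie above.

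Among the listed enzymes, AMACR and ACOX2 of peroxisomal side-chain shortening were low in all libraries. AMACR, the peroxisomal and mitochondrial racemase that prepares the side chain for oxidation (ENSG00000242110.7, chromosome 5, 33986178 to 34008108, minus strand), had 1.384, 0.993 and 1.323 FPKM with fatty acid and 1.983, 1.273 and 1.679 FPKM in controls. The groups overlapped, and the log2 fold change was -0.30 ± 0.16 (95% interval -0.68 to 0.08, limma adjusted p = 0.252). The readthrough gene C1QTNF3-AMACR shares 55.0% of the exon bases of AMACR on the same strand and was at or under 0.061 FPKM in every library. AC139783.1 shares 9.82% of them, also on the same strand. How reads in shared bases were assigned is not known here, so the levels of AMACR and of the readthrough gene are uncertain to that extent. The part of these overlaps in the AMACR value was not tested.

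ACOX2, the peroxisomal oxidase of branched side chains (ENSG00000168306.12, chromosome 3, 58505136 to 58537319, minus strand), lay below the minimum for testing, at 0.124, 0.271 and 0.358 FPKM with fatty acid and 1.098, 0.368 and 0.46 FPKM in controls. The groups were separated by a narrow margin, and control replicate 1 stood apart at the top. The pooled reads were 41 with fatty acid and 68 in controls, which relative to the library totals is 0.423 times as many with fatty acid (95% exact conditional binomial interval 0.280 to 0.632, for counting error only). Without control replicate 1, which held 38 of the control reads, the ratio was 0.642 (interval 0.391 to 1.06) and the log2 difference -0.29 in place of -0.56, a comparison of the ratio added after seeing the data. An exact two-sided permutation test over the 6 libraries gave p = 0.1, the smallest value that 3 against 3 allows.

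Of the conjugating enzymes, SLC27A5, the ligase that activates bile acids with coenzyme A (ENSG00000083807.9, chromosome 19, 58479512 to 58512413, minus strand), had the lowest mean FPKM of all 10 enzymes in each group. Its FPKM rests on a length of 8025 bases, against 3859 for ACOX2, which had fewer pooled reads. In control replicate 3 SLC27A5 lay above ACOX2. SLC27A5 had 0.06, 0.13 and 0.219 FPKM with fatty acid and 0.375, 0.236 and 0.548 FPKM in controls, on 47 and 91 pooled reads. The fatty acid libraries were all below the controls, with 0.362 times as many reads relative to the library totals (exact interval 0.249 to 0.521, for counting error only) and an exact permutation p of 0.1. With no expression filter, neither SLC27A5 nor ACOX2 passed (limma adjusted p = 0.223 and 0.340). ZNF446, a zinc finger gene on the opposite strand, shares 14.1% of the exon bases of SLC27A5. It had 2.21, 2.192 and 2.243 FPKM with fatty acid and 3.58, 2.374 and 2.492 FPKM in controls. ZNF446 was thus above SLC27A5 in every library and did not pass the threshold (limma adjusted p = 0.234). The part of this overlap in the SLC27A5 value was not tested.

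BAAT, the transferase that attaches glycine or taurine (ENSG00000136881.11, chromosome 9, 101360417 to 101383519, minus strand), was abundant, with 21.448, 22.167 and 23.23 FPKM in fatty acid libraries and 35.119, 33.649 and 35.569 FPKM in control libraries. Libraries of a group differed little, by 4.02% of the mean with fatty acid and 2.89% in controls, and the groups lay far apart. The fatty acid mean was 64.1% of the control mean, with a log2 fold change of -0.63 ± 0.05 (limma adjusted p = 0.00063). A gene on the opposite strand shares 13.4% of the exon bases of BAAT.

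The promoters of both called enzymes that RefSeq's promoter table matched, AKR1D1 and BAAT, are shown beside that of CYP27A1, which was not called, because they differ in base composition, a feature chosen after the sequences were seen. Of the 10 enzymes, 6 had an entry in that table (build GRCh38.p14), each covering 250 bases before to 50 after an annotated start. The AKR1D1 window is chr7:138076209-138076508 on the plus strand, inside the gene as the deposited table bounds it and 74135 bases downstream of its first base. The BAAT window, 1 of 2 in the table, is chr9:101383515-101383814 on the minus strand, with its start 45 bases upstream of the deposited gene's 5′ end, and the CYP27A1 window is chr2:218781897-218782196 on the plus strand. The sequences run 5′ to 3′, and capitals mark matches to AGGTCA, the hexamer bound by many nuclear receptors, or to the TATA box letters TATAAA, on either strand.
AKR1D1: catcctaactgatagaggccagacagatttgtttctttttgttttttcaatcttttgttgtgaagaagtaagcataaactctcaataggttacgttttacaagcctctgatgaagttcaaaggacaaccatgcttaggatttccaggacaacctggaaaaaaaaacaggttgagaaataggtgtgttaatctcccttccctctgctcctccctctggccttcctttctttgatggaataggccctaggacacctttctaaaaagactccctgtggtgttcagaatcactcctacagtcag
BAAT: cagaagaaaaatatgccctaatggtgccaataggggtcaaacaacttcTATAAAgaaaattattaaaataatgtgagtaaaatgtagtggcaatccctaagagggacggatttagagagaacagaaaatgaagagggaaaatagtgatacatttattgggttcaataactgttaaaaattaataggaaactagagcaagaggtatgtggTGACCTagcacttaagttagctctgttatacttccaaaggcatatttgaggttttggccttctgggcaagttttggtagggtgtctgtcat
CYP27A1: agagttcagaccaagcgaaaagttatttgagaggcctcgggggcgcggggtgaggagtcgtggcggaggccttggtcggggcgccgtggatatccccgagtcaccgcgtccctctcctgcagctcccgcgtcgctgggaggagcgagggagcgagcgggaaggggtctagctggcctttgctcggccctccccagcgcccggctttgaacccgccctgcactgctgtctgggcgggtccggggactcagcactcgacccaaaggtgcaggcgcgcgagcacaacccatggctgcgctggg

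G and C made up 41.3% of the AKR1D1 window and 36.3% of the BAAT window, as shown above, and 68.7% of the CYP27A1 window. HSD3B7 and AMACR, tested and not called, had 66.3% and 65.7%, and SLC27A5, which was not tested and whose fatty acid libraries all lay below the controls, had 62.7%. Over all 35116 windows the median was 58.7%, with quartiles of 47.0% and 68.0%, and the median of 443 genes called lower was 62.3%, against 64.7% for 8316 genes that were not called. The BAAT window held 1 AGGTCA match, on the minus strand at position -41 from the start, and 1 TATAAA match at -202. HSD3B7 held 2 AGGTCA matches, at -225 and -207, and the windows of AKR1D1, CYP27A1, AMACR and SLC27A5 and the other BAAT window held no match. AGGTCA occurred in 13.8% and TATAAA in 11.5% of all windows. The longer letters CAAGGTCA, which contain the hexamer and are bound by NR5A2, occurred in 1.28% of all windows, the HNF4A letters CAAAGTCCA in 0.384%, and neither in any of the 6 enzymes' windows. A match describes letters in a window, not a site.

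The order of the 10 levels in FPKM, which depends on the annotated lengths, changed in its middle. With fatty acid it ran CYP27A1, BAAT, CYP7B1, HSD3B7, CYP8B1, AMACR, AKR1D1, CYP7A1, ACOX2 and SLC27A5, and the ranges of BAAT and CYP7B1, CYP8B1 and AMACR, AMACR and AKR1D1, and ACOX2 and SLC27A5 overlapped. In controls it ran CYP27A1, BAAT, HSD3B7, CYP7B1, CYP8B1, AKR1D1, CYP7A1, AMACR, ACOX2 and SLC27A5. Overlapping neighbours there were HSD3B7 and CYP7B1, CYP8B1 and AKR1D1, AKR1D1 and CYP7A1, and ACOX2 and SLC27A5. CYP7A1 and AKR1D1 were above AMACR in every control library, and both were below AMACR in every fatty acid library. The level of AMACR is uncertain because of its shared exon bases, as said above, and so is its place in either order.

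Other enzymes and carriers that work with these 10 changed in part. Of 13 listed, 10 were tested, 3 fell, 1 rose and 6 did not pass, where 4.68% of all tested genes were lower and 8.22% higher. Their median log2 fold change was -0.20. The 1 of 10 that rose is close to the share of all genes. AKR1C4, the aldo-keto reductase that acts directly after AKR1D1 on the steroid ring, fell, with 5.622, 5.529 and 6.489 FPKM in fatty acid libraries and 18.3, 16.999 and 15.159 FPKM in control libraries (log2 fold change -1.44 ± 0.09, limma adjusted p = 0.000176). AKR1C4 belongs to a family of genes with related sequences. How far reads of other family members entered its value was not tested, so the value is uncertain to that extent.

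For peroxisomal shortening of the side chain, the thiolase and carrier gene SCP2 fell to 16.4 ± 0.274 FPKM with fatty acid, against 23.9 ± 1.25 FPKM in controls (limma adjusted p = 0.00194). HSD17B4, the bifunctional enzyme that handles the bile acid side chain in peroxisomes, rose to 44.6 ± 0.552 FPKM with fatty acid, against 35.1 ± 1.44 FPKM in controls (0.00719). EHHADH, the other peroxisomal bifunctional enzyme, fell to 24.7 ± 0.625 FPKM with fatty acid, against 35.9 ± 3.17 FPKM in controls (0.00504; all SD, n = 3). Successive peroxisomal steps thus stood on both sides of zero. ABCD3, SLC27A2, ACOT8, HSD17B10, CYP39A1 and STARD3 did not pass, CYP46A1 lay below the minimum, and CH25H and STAR had no read in any of the 6 libraries.

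Of the 4 listed electron donors of P450 enzymes, 1 fell, CYB5A, where 4.68% of all tested genes did. CYB5A had 16.0 ± 0.611 FPKM with fatty acid and 20.4 ± 0.715 FPKM in controls (SD, n = 3 each, limma adjusted p = 0.0112). Its call was lost after rescaling to TPM (limma adjusted p = 0.0823) and without fatty acid replicate 1 (0.0657). POR, the reductase that feeds CYP7A1, CYP8B1 and CYP7B1, and FDX1 and FDXR, which feed CYP27A1, had log2 fold changes of 0.00, 0.04 and 0.02, with standard errors of 0.09, 0.08 and 0.13. Peroxisome biogenesis genes (PEX) had 1 called member of 16, PEX11A, which was higher with a log2 fold change of 0.31 ± 0.07 (limma adjusted p = 0.0307) and lost its call under 9 of 17 alternatives, at adjusted p up to 0.123. The median log2 fold change of the 16 was 0.06, and 1 of 16 is below the 8.22% of all tested genes called higher.

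**Figure D3:**
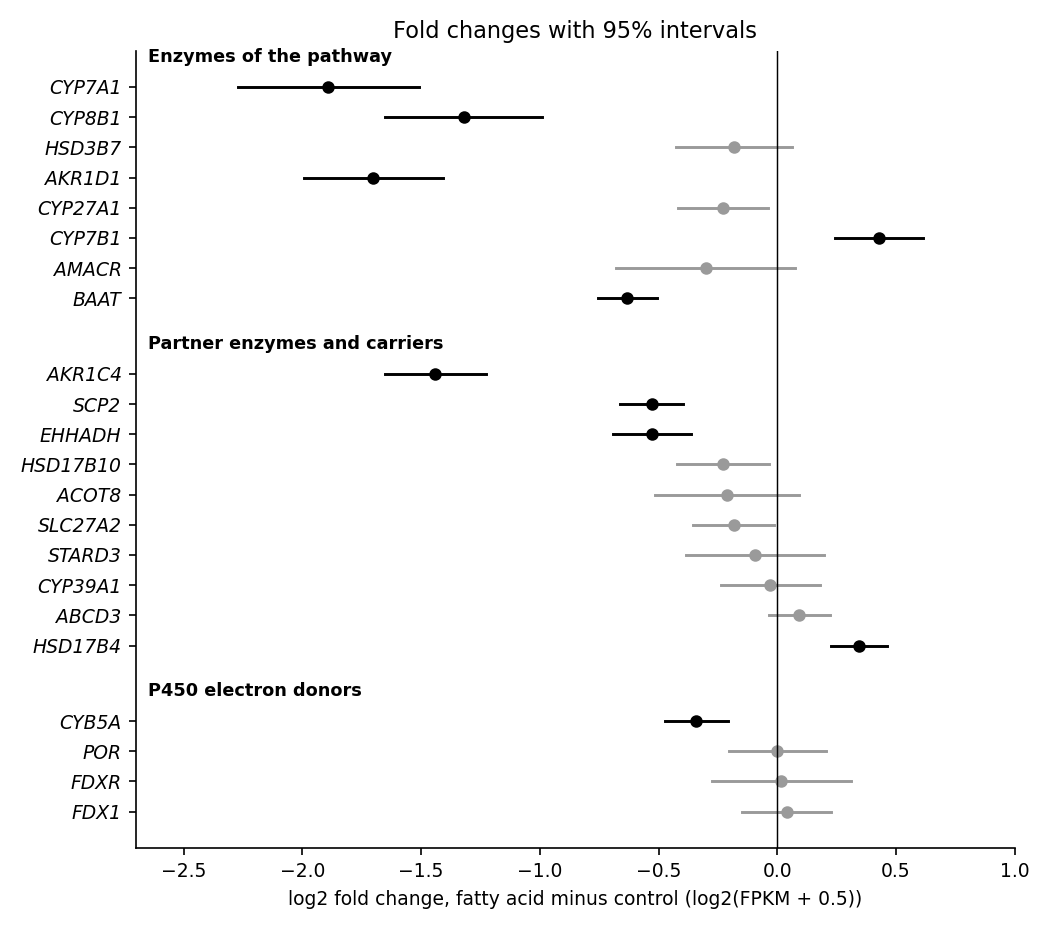
Log2 fold changes (fatty acid minus control) with 95% intervals for the 8 tested enzymes of the pathway, the 10 tested partner enzymes and carriers and the 4 electron donors. Black marks passed the adjusted threshold and grey marks did not. The falls of CYP7A1, AKR1D1, AKR1C4 and CYP8B1 exceed 1 on the log2 scale, and CYP7B1 and HSD17B4 are the marks that passed above 0.

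Among 16 listed regulators of the pathway, 14 were tested, 3 fell and 1 rose, against 4.68% and 8.22% of all tested genes, so the 1 that rose is near the share of all genes. HNF4A, a transcription factor that maintains hepatocyte genes, had 11.25, 11.352 and 12.536 FPKM with fatty acid and 18.187, 15.555 and 16.268 FPKM in controls (limma adjusted p = 0.00923), and lost its call without fatty acid replicate 1 (0.0547) or 2 (0.0527). NR1I2, the xenobiotic receptor PXR, also fell, by 0.93 on the log2 scale (0.0022). FGFR4, the receptor through which intestinal FGF19 restrains CYP7A1, was lower by a log2 fold change of -0.43 ± 0.09 (0.0276), and NR5A2, an activator of CYP7A1 and CYP8B1, higher by 0.56 ± 0.14 (0.038). These calls were lost under 7 and 10 of 17 alternatives, at adjusted p up to 0.109 for FGFR4 and 0.127 for NR5A2.

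Of the feedback genes, NR1H4, the bile acid receptor FXR, had 6.669, 6.097 and 6.799 FPKM with fatty acid and 7.512, 6.71 and 7.139 FPKM in controls, and did not pass (limma adjusted p = 0.313). NR0B2, the repressor SHP that FXR induces, was too low to test, with 12 reads in the fatty acid libraries and 13 in the controls, and FGF19 had no read in any library.

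Markers of the cell types that a HepaRG culture can hold moved along with the enzymes in part. In bulk samples fewer hepatocyte-like cells and less RNA per cell cannot be told apart. Of 15 hepatocyte markers, all tested, 10 fell and 4 rose, against 4.68% and 8.22% of all tested genes, with a median log2 fold change of -0.57. Summed levels were 16483 to 16937 FPKM in fatty acid libraries and 19352 to 20262 FPKM in controls. ALB weighed most in the sums, with a mean of 7127 FPKM with fatty acid and 12025 FPKM in controls. The 4 that rose, SERPINA1, FGA, FGB and HP, came next in level, so the sums do not describe the list as a whole. Of 7 tested of 10 biliary markers, 1 fell, where 4.68% of all tested genes did. Summed levels of the biliary list were 441.4 to 457.0 FPKM with fatty acid and 461.1 to 535.6 FPKM in controls, with EPCAM at 0 in all libraries. KRT19, which did not pass, weighed most in them, with a mean of 316.0 FPKM with fatty acid and 342.7 FPKM in controls. The median log2 fold change of the 7 tested was -0.05. Of 6 tested of 9 mesenchymal markers, 1 rose, where 8.22% of all tested genes did. The mesenchymal list summed to 117.5 to 125.3 FPKM with fatty acid and 100.4 to 110.4 FPKM in controls, with THY1 at 0. LUM, the gene that rose, weighed most, with a mean of 60.7 FPKM with fatty acid and 44.3 FPKM in controls. Of the 6 tested, 3 had a positive and 3 a negative log2 fold change, with a median of 0.003. These sums therefore do not describe the list as a whole. Of 7 immune and endothelial markers only CD14 reached the minimum, the list summed to 13.2 to 14.4 FPKM with fatty acid and 9.49 to 14.3 FPKM in controls, and CDH5 was at 0. Mitochondrially encoded genes took 9.15% to 11.9% of the reads with fatty acid and 12.2% to 15.0% in controls. The part of any of these in the enzymes' values was not tested.

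**Figure D4:**
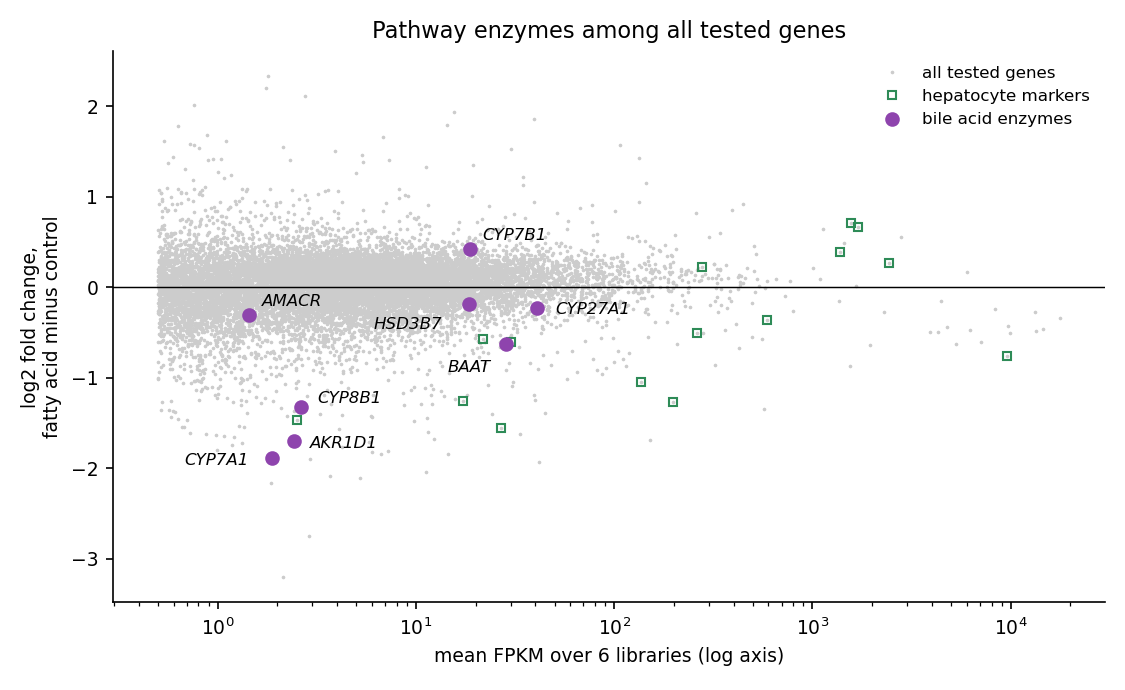
Log2 fold change (fatty acid minus control) against mean FPKM over the 6 libraries on a log axis for all 14661 tested genes (grey), with the 8 tested bile acid enzymes (purple) and 15 hepatocyte markers (green squares). CYP7A1, AKR1D1 and CYP8B1 lie near the lower edge at 1.87 to 2.63 FPKM, and the hepatocyte markers spread from -1.56 to 0.71.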

How the data were processed

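Expression came as FPKM in 1 deposited table that also holds gene symbol, position and length, per the file headers. STAR 2.5.2, featureCounts, Subread 1.5.1 and GRCh38 come from the submitters' processing notes, and libraries were made with a stranded mRNA kit from 100 ng of RNA, per the labels' protocols. FPKM times gene length gave whole reads for at least 99.995% of finely printed values (tolerance 0.02 reads beyond rounding), so reads per gene are known. FPKM is relative to each library's total.

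Groups came from the sample titles. limma 3.58.1 (R 4.3.3, with an intensity trend) compared 3 fatty acid with 3 control libraries on log2(FPKM + 0.5) for genes averaging 0.5 FPKM or more. The fit was also run on simulated reads with the same dispersion for every gene, which does not measure its error rate in these data. Exact permutation tests and binomial intervals used scipy 1.17.1. Exon overlaps came from GENCODE annotation with the same spans as the table for all 10 enzymes, and promoters from RefSeq.

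The 10 enzymes and the further lists were chosen with earlier results of these data known. All 10 enzymes are named. Of partner enzymes and electron donors all called genes are named, and of regulators and peroxisome genes up to 4 called genes with the smallest adjusted p, besides NR1H4, NR0B2, HNF4A, FGFR4 and FGF19. ACKR2 and C1QTNF3-AMACR were named for their position, and POR, FDX1, FDXR and other genes outside the rule after their values were seen.

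Alternatives were pseudocounts of 0.1 and 1, a minimum of 2 FPKM or none, 4 other scalings, no trend, limma voom on recovered reads, the replicate number as a block, and each library left out in turn.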

Additional observations from a re-analysis of the deposited data

How the results depend on the processing

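CYP7A1, CYP8B1, AKR1D1 and BAAT kept their direction and their call under every alternative in which they were tested, with log2 fold changes of -2.67 to -1.49, -1.57 to -1.12, -2.13 to -1.40 and -0.69 to -0.50. CYP7A1 could not be tested with a minimum of 2 FPKM. With that minimum 3 enzymes were called lower. The number of enzymes called lower was 4 to 5 when 1 library was left out, and the number called higher 0 to 1.

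Over all genes there were 1891 calls, 63.7% of them higher. The number was 3023 after rescaling to TPM, 977 with no expression filter, 1101 without the trend, 2997 with voom on recovered reads, and 462 to 1612 when 1 library was left out. Rescaling to TPM moved the median log2 fold change over all tested genes to 0.18, against 0.04. NR1H4 changed sign after rescaling to TPM (log2 fold change 0.0096, limma adjusted p = 0.95). A pseudocount of 0.1 moved the log2 difference of ACOX2 to -1.01 and of SLC27A5 to -1.05, against -0.56 and -0.47. The cause of these shifts was not tested.

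Deviations of same-numbered libraries from their group means correlated at 0.012, 0.084 and 0.022, so the numbers were not taken to pair the libraries. With the replicate block there were 1474 calls over all genes, 4 enzymes lower and 1 higher, and NR5A2 was the gene among those named that lost its call (adjusted p = 0.0525). ACOX2 and SLC27A5 rest on 4 to 52 reads a library, which limits what can be said of them.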
